A study of Homo sapiens with 4 samples.

Results

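The matrix metalloproteinases (MMP), the tissue inhibitors of metalloproteinases (TIMP) and the ADAMTS proteases were examined in bone cancer cells held in suspension with or without melatonin. These genes were taken by symbol from the authors' gene table, which gave 47 genes of 61806, namely 24 MMP, 4 TIMP and 19 ADAMTS genes. RNA had been sequenced from JJ012, a human chondrosarcoma cell line, and from 143B, a human osteosarcoma cell line. Each line gave 1 untreated control library and 1 library after 1 mM melatonin for 72 h, and all 4 cultures were kept detached. The libraries held between 15889564 and 19218343 counts. With 1 library per condition, no difference could be set against the spread between cultures, and every statement compares libraries. Both lines are long-term cultures, and the defining cartilage genes COL2A1, ACAN, COL9A1 and HAPLN1 were at 0.02 FPKM or less in both JJ012 libraries, while COL11A2 was at 1.67 FPKM and MATN3 at 0.91 FPKM in the control. SOX9, a cartilage transcription factor, was at 15.06 FPKM in the JJ012 control and 15.48 FPKM in the 143B control. SPP1, a bone matrix gene, was at 79.39 and 0.40 FPKM, so SOX9 and SPP1 did not separate the lines by their labelled origin. Other markers went both ways. COL11A2 was lower in the 143B control, at 0.52 FPKM, and the bone gene BGLAP was at 0.81 FPKM in the JJ012 control and 1.44 FPKM in the 143B control. The bone gene SP7 was at 0.12 and 0.00 FPKM in these libraries. In 143B, the bone genes IBSP and DMP1 were at 0.00 FPKM in both libraries. RUNX2, a bone transcription factor, was at 4.28 FPKM in the 143B control and 3.02 FPKM in the JJ012 control.

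MMPs are zinc-dependent proteases that are made as inactive precursors and cut collagens, laminins, fibronectin and other proteins of the matrix. Some are secreted and others are held at the cell surface, where MMP14 together with TIMP2 activates MMP2. TIMPs bind the active site of these proteases and block it. ADAMTS proteases are secreted relatives with thrombospondin repeats, and they cut proteoglycans such as aggrecan, trim the ends of procollagens or act on single substrates. In cartilage and bone tumors, MMPs are studied for their part in invasion and in spread to the lung, and detached culture is used as a model of tumor cells that have left the matrix.

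Levels are given as FPKM, the counts scaled to exonic length and to the total of the library. Changes are given as log2 changes, for which 1 FPKM was added to both levels before the treated level was divided by that of the control, which understates the change of low genes. A gene was compared in a line when at least 1 of its 2 libraries reached 1 FPKM, and it was called higher or lower where this log2 change was 0.58 or more in size. For single genes the ratio of CPM (counts scaled to the total of the library alone) is given with its exact Clopper-Pearson 95% interval, which covers counting error only, since molecules were not tagged before amplification as far as the sources used here say. The floor was set at 3 counts per library, which is between 0.156 and 0.189 CPM.

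In the untreated cells, the lines used different members of the families. Collagenase MMP1 and gelatinase MMP9 dominated in 143B, whereas matrilysin MMP7 and the inhibitors TIMP2 and TIMP4 were far higher in JJ012. MMP2, MMP15 and MMP17 were higher in JJ012 by 2.85-fold, 4.75-fold and 3.09-fold by CPM. MMP14 and TIMP1 were abundant in both. A total of 28 of the 47 genes reached 1 FPKM in at least 1 library (14 MMP, 4 TIMP and 10 ADAMTS). Between the control libraries, all of these 28 could be compared, and 14 were called higher in JJ012 and 11 lower. Between these libraries 68.7% of all compared genes were called, 41.3% higher in JJ012 (64.6% and 39.6% of protein-coding genes), so that a large share of calls was common to the table. Over all compared genes the median log2 difference was 0.29 (JJ012 over 143B), and with the values centred on it 11 of the 28 were called higher in JJ012 and 11 lower.

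**Figure D1:**
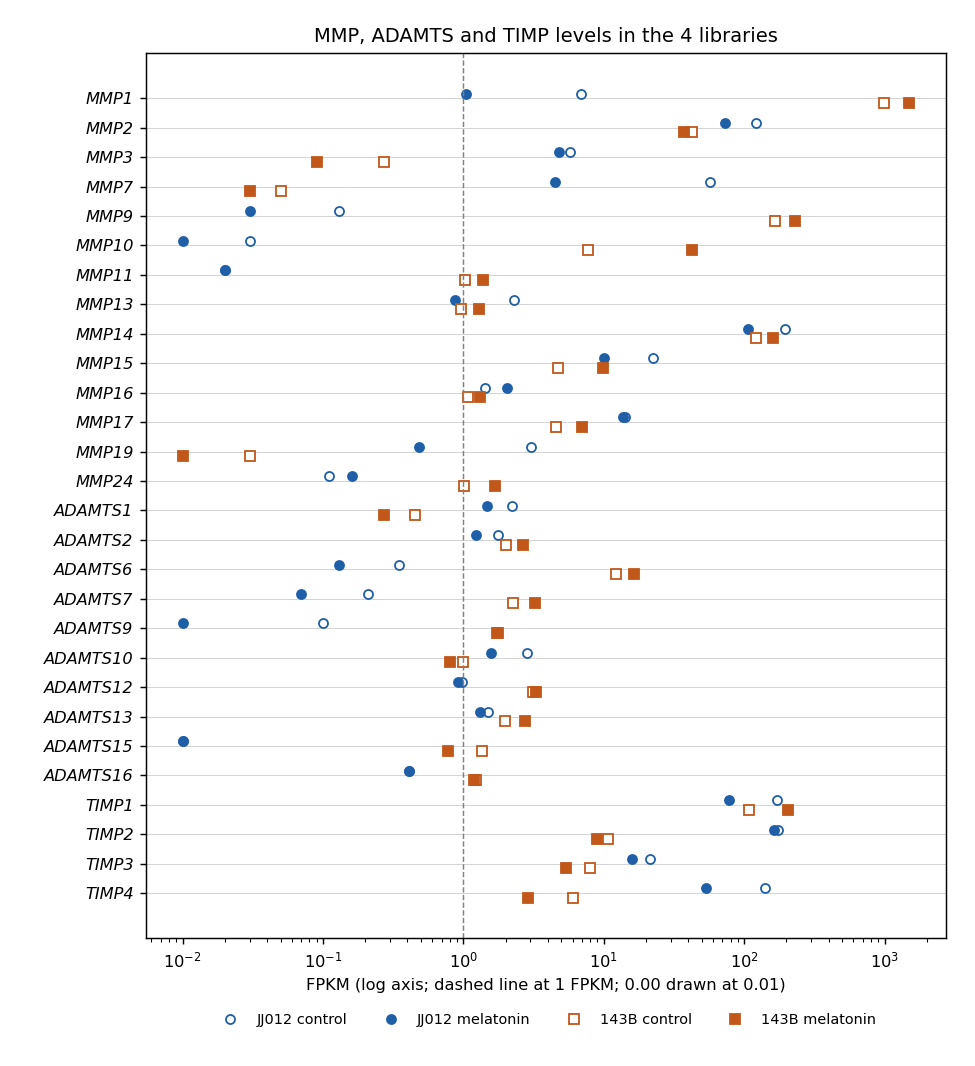
Level of each of the 28 genes that reached 1 FPKM in at least 1 library, on a log axis in FPKM, with JJ012 as circles and 143B as squares, open for control and filled for melatonin. MMP1 and MMP9 stand far to the right in 143B, and MMP7, TIMP2 and TIMP4 in JJ012.

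MMP1, which cuts fibrillar collagen, was at 994.01 FPKM in the 143B control and 6.86 FPKM in the JJ012 control, a 145-fold difference by CPM. It was the gene with rank 11 of all genes by FPKM in the 143B control, took 0.272% of its counts, and made up 73.8% of the summed FPKM of all MMP genes there. MMP9, a gelatinase, was at 165.82 FPKM in the 143B control against 0.13 FPKM in the JJ012 control (6155 and 6 counts). By CPM it was 1241-fold lower in JJ012 (log2 ratio -10.28, -11.72 to -9.15), and the near end of the interval was 570-fold. MMP9 is also a product of neutrophils and macrophages, and the 5 leukocyte markers checked summed to 0.26 FPKM in that library, with 0 of the 5 at 1 FPKM. MMP10, the neighbor of MMP1 on chromosome 11, was likewise a gene of 143B, with 217 counts in its control against 1 count in that of JJ012.

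MMP7, a small protease without the hemopexin domain, showed the opposite pattern with 57.44 FPKM in the JJ012 control (2561 counts) and 2 counts in the 143B control. The log2 ratio of CPM was 10.05, with an interval from 8.19 to 13.09. MMP19 was also a gene of JJ012, with 273 counts against 2 counts in the 143B control. MMP3, a stromelysin that can activate other MMPs, was at 5.73 FPKM in JJ012 and 0.27 FPKM in 143B. Among the ADAMTS genes the line with the higher level differed from gene to gene. ADAMTS6 was at 12.23 FPKM in the 143B control and 0.35 FPKM in the JJ012 control, 34.7-fold lower in JJ012. ADAMTS15 had 130 counts in control 143B and 0 in control JJ012, at least 52.4-fold lower against the floor of 3 counts per library, and the near end of the counting interval was -5.39 on the log2 scale. The reverse held for ADAMTS20, with 126 counts in control JJ012 against 0 in control 143B, at least 34.7-fold higher in JJ012, with the near end of the interval at 4.80 on the log2 scale.

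The 4 inhibitors were all called higher in the JJ012 control than in the 143B control. TIMP2 was at 175.09 FPKM in JJ012 and 10.69 FPKM in 143B, and TIMP4 at 140.28 and 6.01 FPKM. TIMP1 differed least, with 170.64 and 109.07 FPKM, a log2 difference of 0.64 beside the median of 0.29 over all genes. As sums over the families, MMP genes held 430 FPKM and TIMP genes 507 FPKM in the JJ012 control, against 1346 and 134 FPKM in the 143B control. The summed MMP level was thus 0.847 times the summed TIMP level in JJ012 and 10.1 times in 143B. Without MMP1, the quotient in 143B was 2.63. A quotient of mRNA sums says nothing of the amounts of active protein.

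After melatonin, 7 of the 10 MMP genes compared in JJ012 were called lower, as were 2 of the 4 TIMP and 0 of the 4 ADAMTS genes. Of the 18 genes compared in JJ012, 9 were called lower and 0 higher, where 18.6% of all 15794 compared genes were called lower and 19.6% higher, 38.2% in all. The 9 genes were MMP1, MMP2, MMP7, MMP13, MMP14, MMP15, MMP19, TIMP1 and TIMP4, so proteases and inhibitors were both among them. With TPM in place of FPKM, 26 of the families' genes were compared in JJ012, and 2 were called higher and 8 lower. Over all genes, 52.8% were called with TPM. The median log2 change of the 18 genes was -0.65, beside 0.01 over all compared genes. In 143B, 4 of the 23 genes compared were called higher (MMP1, MMP10, MMP15 and TIMP1) and 1 lower (TIMP4), where 6.09% of all 14135 compared genes were called higher and 6.65% lower. With TPM, 4 of 31 genes were called higher and 6 lower in 143B, where 28.6% of all genes were called. With CPM, 6 of 30 were called higher and 3 lower, where 13.9% of all genes were called. The median of the 23 genes was 0.27, beside 0.03 over all compared genes. Among protein-coding genes by GENCODE 29, to which 46 of the 47 belong, the shares called were 16.1% lower in JJ012 and 3.48% higher and 2.6% lower in 143B. In these bulk libraries, fewer cells of a type and less RNA per cell cannot be told apart. Across protein-coding genes the log2 change had a Spearman correlation with exonic length of 0.40 in JJ012 and -0.13 in 143B, and with this trend removed 9 of the families' genes were again called lower in JJ012. The summed level of 7 chondrocyte markers was 17.7 FPKM in the JJ012 control and 7.13 FPKM with melatonin, of which SOX9 held 15.06 and 6.16 FPKM. That of 5 leukocyte markers was 11.3 and 4.25 FPKM, and their part in the result was not tested.

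**Figure D2:**
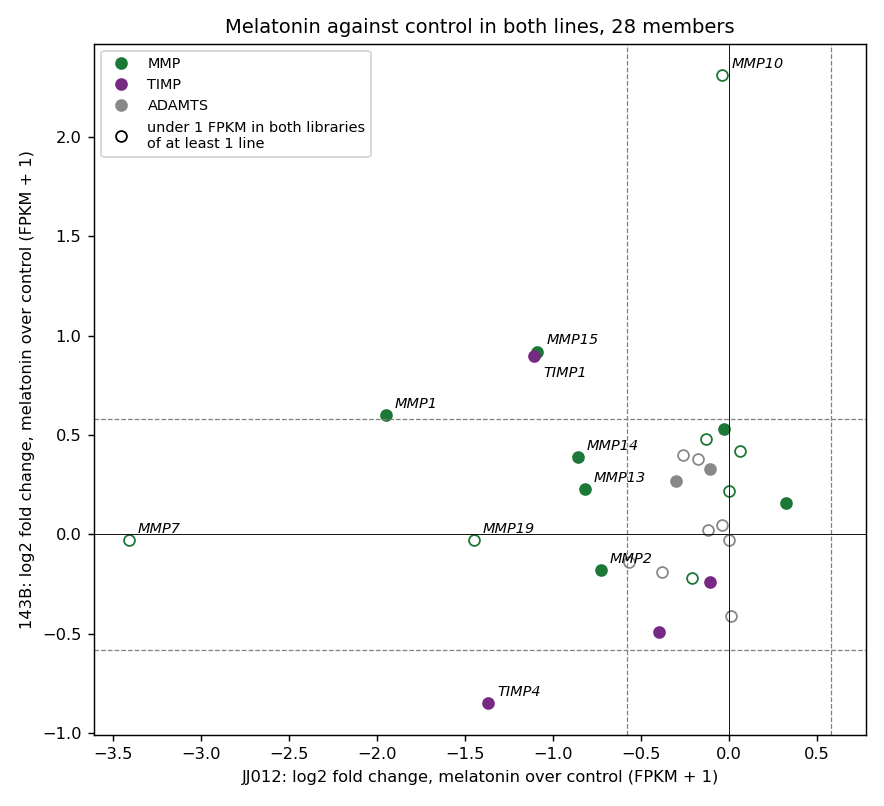
Log2 fold change (FPKM + 1) of melatonin over control in JJ012 (x axis) and 143B (y axis) for the 28 genes, colored by family, with dashed lines at the threshold of 0.58 and open circles for genes under 1 FPKM in both libraries of at least 1 line. MMP1, MMP15 and TIMP1 lie past the lines on the side that is lower in JJ012 and higher in 143B, and TIMP4 is lower in both.

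Of the collagenases, MMP1 was called in both lines, in opposite directions, and MMP13 in JJ012 alone. MMP1 was at 6.86 FPKM in the JJ012 control and 1.04 FPKM with melatonin (361 and 46 counts), a log2 change of -1.95 and 6.59-fold lower by CPM. In 143B it was at 994.01 and 1503.96 FPKM (43245 and 70682 counts), a log2 change of 0.60 that lay just above the threshold, and it took 0.412% of the counts of the treated library. The log2 ratio of CPM was 0.60 (0.58 to 0.61) in 143B and -2.72 (-3.20 to -2.28) in JJ012, so the intervals of the lines lay on opposite sides of 0. With the fold changes of 143B centred on the median gene, MMP1 had 0.57 and was no longer called. MMP13, the collagenase of hypertrophic cartilage, was at 2.30 FPKM in the JJ012 control and 0.87 FPKM with melatonin (125 and 40 counts), a log2 ratio of CPM of -1.39 (-1.94 to -0.87). In 143B it had 43 and 63 counts, and the interval from -0.14 to 1.03 included 0. MMP8, the collagenase of neutrophils, had at most 1 count in every library.

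Among the genes compared, the log2 change (FPKM + 1) farthest from 0 was that of MMP7 in JJ012 and of MMP10 in 143B. MMP7 was at 57.44 FPKM in the JJ012 control and 4.51 FPKM with melatonin (2561 and 169 counts), 12.7-fold lower by CPM (log2 ratio -3.67, -3.90 to -3.45). In 143B it had 2 and 1 counts and could not be compared. MMP10, a stromelysin with a broad range of substrates, was at 7.76 FPKM in the 143B control and 42.49 FPKM with melatonin (217 and 1283 counts), 5.47-fold higher by CPM (log2 ratio 2.45, 2.24 to 2.67). In JJ012 it had 1 and 0 counts. Each of these genes was thus expressed in 1 line only, above the floor, and changed there. The related stromelysin MMP3 had 204 and 144 counts in JJ012, with an interval from -0.57 to 0.06, and 8 and 3 counts in 143B. MMP26, the other matrilysin, had 0 counts in all libraries, which allows up to 0.189 CPM.

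**Figure D3:**
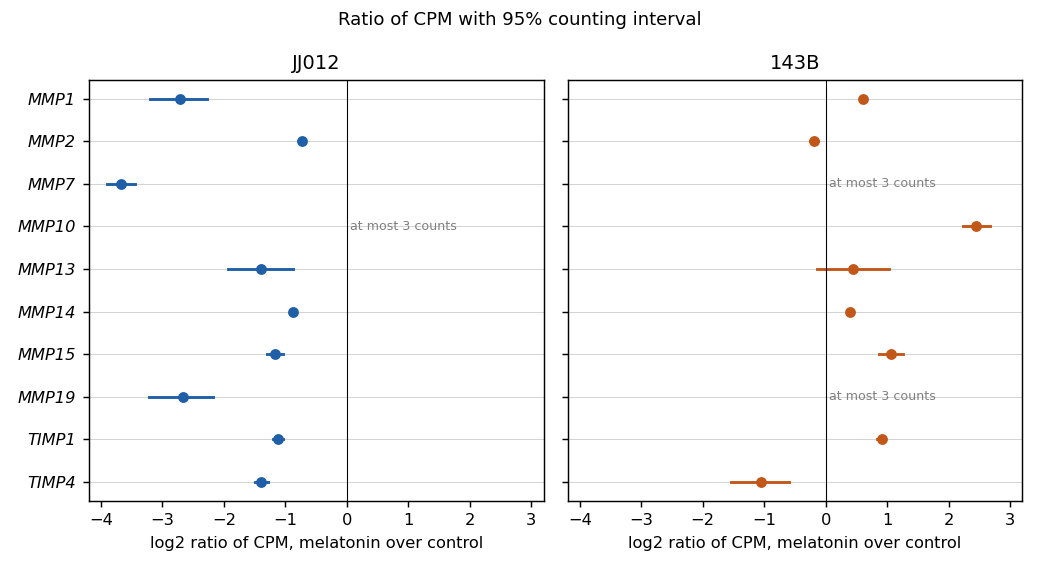
Log2 ratio of CPM, melatonin over control, with the 95% counting interval as a horizontal line, for the 10 genes called in at least 1 line, in JJ012 (left) and 143B (right). All 9 genes shown with a value for JJ012 lie below 0, and in 143B the values run from -1.06 for TIMP4 to 2.45 for MMP10, with the interval of MMP13 including 0.

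MMP7 and MMP10 lie on the minus strand of chromosome 11, and their promoters are shown because these genes had the log2 change (FPKM + 1) farthest from 0 in their line. The 120 bases before the RefSeq start (GRCh38.p14) are at chr11:102530748-102530867 for MMP7 and at chr11:102780629-102780748 for MMP10. Capitals mark TGANTCA, the core of the site of the AP-1 transcription factors, which reads the same on both strands, and TATAAA, the TATA box, searched on both strands. The motifs do not overlap.
MMP7: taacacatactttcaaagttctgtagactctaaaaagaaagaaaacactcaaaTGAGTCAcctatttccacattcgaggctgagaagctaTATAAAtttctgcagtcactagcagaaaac
MMP10: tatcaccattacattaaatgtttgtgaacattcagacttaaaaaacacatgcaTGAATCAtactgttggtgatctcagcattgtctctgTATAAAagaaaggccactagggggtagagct
In both promoters the AP-1 core begins 67 bases before the start. Of the 35116 promoters of 300 bases in the RefSeq table, 7.71% held TGANTCA and 11.5% held TATAAA. The table had promoters for 27 of the 47 genes, of which 4 (ADAMTS12, MMP7, MMP10 and MMP20) held TGANTCA. Of these, 3 (MMP7, MMP10 and MMP20) also held TATAAA. Promoters of MMP1, MMP2, MMP3, MMP9, MMP13, MMP19 and TIMP2, among others, were absent from it, so the motifs were not examined in those genes. In MMP20, the enamel protease, the AP-1 core began 112 bases before the start, and the gene had at most 5 counts in any library. Whether the motifs act on these genes was not tested. TIMP1, TIMP3, TIMP4, MMP14 and MMP15 had no TGANTCA in their 300 bases.

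These genes belong to a cluster of 9 MMP genes on the minus strand of chromosome 11, from 102520508 to 102955732 (hg38, authors' positions), in the order MMP7, MMP20, MMP27, MMP8, MMP10, MMP1, MMP3, MMP12 and MMP13. Together the 9 genes had 3263 counts in the JJ012 control and 401 counts with melatonin. In 143B they had 43518 and 72032 counts, nearly all from MMP1. These sums, not scaled to the library totals, were lower with melatonin in JJ012 and higher in 143B. They were carried mainly by MMP7 in JJ012 and by MMP1 in 143B. Not every gene followed the sums. The intervals of MMP3 in JJ012 and of MMP13 in 143B included 0, and MMP3 had 8 and 3 counts in 143B. MMP20, MMP27, MMP8 and MMP12 had at most 5 counts in any library, although they stand between or beside expressed genes. The 5 promoters of the cluster in the RefSeq table held between 33.3% and 44.3% G or C, against a median of 58.7% over all promoters. WTAPP1, a pseudogene on the plus strand that overlaps MMP10, MMP1 and MMP3, had 56 and 111 counts in 143B and 5 and 1 counts in JJ012. Whether the counting used strand is not given in the sources used here, so that reads of overlapping genes on opposite strands may not have been told apart.

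**Figure D4:**
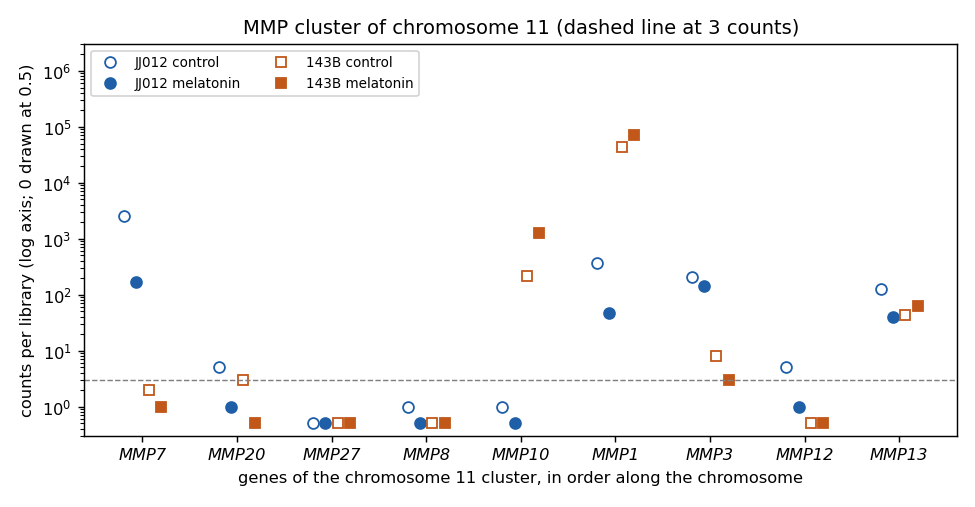
Counts per library, on a log axis, of the 9 MMP genes of the chromosome 11 cluster in their order along the chromosome, with JJ012 as circles and 143B as squares, open for control and filled for melatonin; counts compare libraries within a gene, not genes with each other. MMP7 was lower after melatonin in JJ012 (2561 to 169 counts) and MMP10 higher in 143B (217 to 1283 counts), while MMP27 had 0 counts throughout.

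The gelatinases, which cut denatured collagen and basement membrane, changed less. MMP2 was at 121.29 FPKM in the JJ012 control and 72.88 FPKM with melatonin (10970 and 5537 counts), a log2 change of -0.73. With TPM it was -0.46, below the threshold. In 143B, MMP2 was at 42.62 and 37.39 FPKM, a log2 ratio of CPM of -0.19 (-0.26 to -0.12), larger than counting error and under the threshold. MMP9 was at 165.82 and 231.21 FPKM in 143B (6155 and 9271 counts), a log2 change of 0.48, also under the threshold. In JJ012, MMP9 had 6 and 1 counts.

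Among the membrane-anchored MMPs, 2 of the 4 compared in JJ012 were called lower and 1 of the 5 compared in 143B was called higher. MMP14, the main activator of MMP2 at the cell surface, was at 193.93 FPKM in the JJ012 control and 106.39 FPKM with melatonin, a log2 change of -0.86. In 143B it was at 121.28 and 159.59 FPKM, a log2 change of 0.39, so that the control of JJ012 stood above that of 143B and the treated library of JJ012 below that of 143B. MMP15 was at 22.52 and 10.03 FPKM in JJ012, 2.25-fold lower by CPM, and at 4.74 and 9.87 FPKM in 143B, 2.08-fold higher. The treated libraries of the lines thus had close levels of MMP15, although their controls differed 4.75-fold by CPM. MMP17, anchored by glycosylphosphatidylinositol, was at 14.08 and 13.75 FPKM in JJ012, with an interval of the log2 ratio of CPM from -0.16 to 0.09, and at 4.56 and 7.02 FPKM in 143B (0.41 to 0.84). MMP16 was at 1.43 and 2.04 FPKM in JJ012 and at 1.08 and 1.32 FPKM in 143B. It was the single gene of the 18 compared in JJ012 with a log2 change above 0 (0.32). With TPM, MMP17 (0.24), TIMP2 (0.17), ADAMTS13 (0.07) and MMP3 (0.02) were also above 0 there, beside a median of 0.21 over all genes. With the trend over exonic length removed, MMP16 was at -0.03 in JJ012, and MMP3 (0.11) and MMP17 (0.03) were above 0. MMP24 had 9 and 11 counts in JJ012 and 70 and 127 counts in 143B, where MMP24OS on the other strand had 865 and 1209 counts.

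Of the other MMPs at 1 FPKM or more, MMP19 was called lower in JJ012. It was at 3.04 FPKM in the control and 0.48 FPKM with melatonin (273 and 36 counts), 6.37-fold lower by CPM. TMEM198B, which overlaps it on the other strand, had 641 and 306 counts there. MMP11, or stromelysin 3, which furin activates inside the cell, was at 1.03 and 1.37 FPKM in 143B, with 84 and 121 counts, and had 2 counts in each JJ012 library.

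Of the 4 inhibitors, 2 were called lower in JJ012, and in 143B 1 was called higher and 1 lower. TIMP1, a secreted inhibitor of most MMPs, was at 170.64 FPKM in the control and 78.61 FPKM with melatonin (4742 and 1835 counts), 2.17-fold lower by CPM (log2 ratio -1.12, -1.20 to -1.04). In 143B, TIMP1 was at 109.07 and 204.27 FPKM (2506 and 5070 counts), 1.87-fold higher (log2 ratio 0.91, 0.84 to 0.97). The calls of TIMP1 thus had the same directions as those of MMP1 and MMP15 in both lines. TIMP4 was at 140.28 and 53.54 FPKM in JJ012 (3219 and 1032 counts) and at 6.01 and 2.88 FPKM in 143B (114 and 59 counts). Its log2 ratio of CPM was -1.39 (-1.49 to -1.29) in JJ012 and -1.06 (-1.54 to -0.60) in 143B, and the intervals overlapped. SYN2, which encloses TIMP4 on the other strand, had 154 and 63 counts in JJ012 and 241 and 298 counts in 143B. TIMP2, which takes part in the activation of MMP2, was at 175.09 and 162.69 FPKM in JJ012 and at 10.69 and 8.93 FPKM in 143B, with log2 changes of -0.11 and -0.24. TIMP3, which is bound to the matrix and also inhibits ADAMTS proteases, was at 21.31 and 15.95 FPKM in JJ012 and at 7.97 and 5.40 FPKM in 143B, with log2 changes of -0.40 and -0.49. TIMP2, TIMP3 and TIMP4 had intervals of the CPM ratio wholly below 1 in both lines.

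Summed over the families, MMP genes held 430 FPKM in the JJ012 control and 218 FPKM with melatonin, and TIMP genes 507 and 311 FPKM. In 143B, MMP genes held 1346 and 1998 FPKM and TIMP genes 134 and 221 FPKM. The quotient of summed MMP over summed TIMP level was 0.847 and 0.701 in JJ012 and 10.1 and 9.02 in 143B. The higher TIMP sum of treated 143B came from TIMP1, since TIMP2, TIMP3 and TIMP4 were each at a lower level there than in the control. TIMP1 made up 81.6% of the summed TIMP level in the 143B control and 92.2% with melatonin.

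No ADAMTS gene reached the threshold in either line, with 4 compared in JJ012 and 8 in 143B. The limit of 1 FPKM left most of the 19 out in each line. By counting error alone, 10 of the 16 with more than 3 counts in a JJ012 library had a CPM ratio interval wholly below 1. None lay above, where 30.3% of all such genes lay below and 26.3% above. In 143B, 4 of 17 lay above and 3 below, where 21.6% of all such genes lay above and 18.7% below. With a pseudocount of 0.1 FPKM, ADAMTS10 in JJ012 (-0.81) and ADAMTS15 in 143B (-0.73) were called lower. In JJ012, all 4 genes compared were below 0 on the log2 scale, and with TPM ADAMTS13 was at 0.07. ADAMTS10, which binds fibrillin, was at 2.82 and 1.57 FPKM (309 and 145 counts), a log2 change of -0.57 just under the threshold, and 1.79-fold lower by CPM. ADAMTS1, which cuts aggrecan and versican, was at 2.23 and 1.48 FPKM in JJ012, a log2 ratio of CPM of -0.59 (-0.86 to -0.32). ADAMTS2, the main procollagen N-propeptidase, was at 1.76 and 1.24 FPKM in JJ012 and at 2.01 and 2.64 FPKM in 143B, with intervals of the log2 ratio from -0.78 to -0.23 and from 0.17 to 0.61. It was therefore lower in 1 line and higher in the other by amounts larger than counting error and below the threshold. ADAMTS13, which cuts von Willebrand factor, had 164 and 121 counts in JJ012 and 180 and 268 counts in 143B. Its gene overlaps REXO4 on the other strand.

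In 143B, the ADAMTS gene with the highest level was ADAMTS6, at 12.23 and 16.45 FPKM (1664 and 2418 counts), a log2 change of 0.40. ADAMTS7, which cuts cartilage oligomeric matrix protein, was at 2.24 and 3.22 FPKM in 143B, a log2 change of 0.38. It overlaps MORF4L1, a gene on the other strand with 4544 to 6731 counts per library. ADAMTS12, with the same substrate, was at 3.14 and 3.29 FPKM in 143B and at 0.98 and 0.92 FPKM in JJ012, and its intervals included 0 in both lines. The aggrecan- and versican-cutting ADAMTS15 was at 1.36 and 0.78 FPKM in 143B (130 and 80 counts), a log2 ratio of CPM of -0.81 (-1.23 to -0.40), and ADAMTS9, another proteoglycanase, was at 1.73 and 1.77 FPKM (-0.20 to 0.27). ADAMTS16 was at 1.23 and 1.19 FPKM in 143B, with 115 and 120 counts. Below the limit of 1 FPKM in JJ012, ADAMTS6 had 58 and 18 counts, ADAMTS7 had 32 and 9 counts, and ADAMTS9 had 20 and 1 counts.

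The remaining 19 genes, 10 MMP and 9 ADAMTS genes, stayed under 1 FPKM in every library. Of these, 7 had at most 3 counts in every library, and 2 of the 7, MMP26 and MMP27, had 0 counts everywhere. The aggrecanases that are best known in cartilage were low. ADAMTS5 had 5, 0, 3 and 5 counts in the JJ012 control, treated JJ012, the 143B control and treated 143B, and ADAMTS4 had 130 and 63 counts in JJ012 and 4 and 11 counts in 143B. The highest level in this group was that of ADAMTS20 in treated JJ012, with 0.98 FPKM (126 and 118 counts in control and treated JJ012).

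By counting error alone, without the limit of 1 FPKM and the threshold, 21 of the 36 genes with more than 3 counts in a JJ012 library had an interval of the CPM ratio wholly below 1 and 2 wholly above, where 30.3% of all such genes of the table lay below and 26.3% above. The 2 genes above were MMP16 and MMP21, of which MMP21 had 8 and 20 counts and overlaps EDRF1 on the other strand, with 635 and 1074 counts. In 143B, 14 of 35 genes lay above and 8 below, where 21.6% of all such genes lay above and 18.7% below.

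A total of 13 genes could be compared in both lines. Of these, 8 had a log2 change below 0 in JJ012 and above 0 in 143B, where 25.1% of the 11822 genes compared in both lines had this pair of signs. A further 4 were below 0 in both lines and 1, MMP16, above 0 in both, where 20.2% and 30.4% of all genes were. Signs of small changes depended on the scaling. With TPM, MMP17 (0.24), TIMP2 (0.17) and ADAMTS13 (0.07) were above 0 in JJ012, and with the length trend removed MMP16 was at -0.03 there. Called in both lines were 4 genes. MMP1, MMP15 and TIMP1 were lower in JJ012 and higher in 143B, where 0.914% of all genes had this pair of calls, and TIMP4 was lower in both, where 1.34% had. None was called higher in both lines or higher in JJ012 and lower in 143B, where 1.16% of all genes had each of these pairs. Each line had its own control, and no library was shared.

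Of 17 genes that activate, inhibit or clear these proteases outside the families, 6 of the 11 compared in JJ012 were called lower and 0 higher, and 3 of the 15 compared in 143B were called higher and 0 lower, beside 18.6% of all genes called lower in JJ012 and 6.09% called higher in 143B. Their median log2 change was -0.72 in JJ012 and 0.12 in 143B. FURIN, the convertase that removes the propeptide of MMP14, MMP15 and MMP11, was at 55.88 and 23.82 FPKM in JJ012 and at 26.52 and 27.31 FPKM in 143B. LRP1, the receptor that takes up MMPs and TIMP complexes, was at 20.81 and 9.64 FPKM in JJ012 and at 19.57 and 18.49 FPKM in 143B. SERPINE2, a secreted serine protease inhibitor, had a log2 change of -0.79 in JJ012 and -0.41 in 143B.

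Of 17 matrix substrates, 8 of the 10 compared in JJ012 were called lower and 0 higher, with a median log2 change of -1.14 (18.6% of all genes were called lower), and 2 of the 8 compared in 143B were called lower and 0 higher, with a median of -0.23 (6.65% of all genes were called lower). The lowest log2 changes in JJ012 were those of fibrillar collagens. COL1A2 had 2594 and 24 counts in JJ012, COL3A1 had 1305 and 10 counts, and COL1A1 had 1891 and 112 counts. COL5A1 was at 74.24 and 17.53 FPKM in JJ012 and at 45.12 and 33.86 FPKM in 143B.

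Of 18 transcription factors and cytokines known to act on MMP genes, 5 of the 13 compared in JJ012 were called higher and 0 lower, and 3 of the 17 compared in 143B were called lower and 0 higher. These were 38.5% and 17.6% of the genes compared, where 19.6% of all genes were called higher in JJ012 and 6.65% lower in 143B. Called in either direction were 38.2% and 12.7% of all genes. JUND, an AP-1 factor, was at 32.02 and 88.24 FPKM in JJ012, a log2 change of 1.43, and at 29.10 and 37.00 FPKM in 143B. ETS1, which binds next to AP-1 in several MMP promoters, was at 33.90 and 70.31 FPKM in JJ012 and at 74.66 and 90.14 FPKM in 143B. The inflammatory cytokines IL1B and IL1A, known inducers of MMP1 and MMP10, were at 32.75 and 12.04 FPKM and at 32.95 and 14.41 FPKM in 143B, with log2 changes of -1.37 and -1.14, and each had at most 10 counts in the JJ012 libraries.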

How the data were processed

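RNA had been poly(A)-selected and sequenced as paired ends in 4 libraries, with 1 library per condition. The values deposited by the authors are raw counts for each gene, the exonic length, and FPKM, which equal the counts scaled to that length and to the library total, to within rounding. The submitters' processing notes name cutadapt 1.9.1, HISAT2 2.2.1, HTSeq 0.6.1, DESeq2 and hg38; the strand setting and annotation release are not given in the sources used here. Columns were matched by cell line, and the suffix T was read as treated.

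Genes were taken by symbol. Every gene at 1 FPKM or more in a library was named with its values, and at most 4 genes of each further list, those with the largest fold change. Results for items withheld from the text are not reported here. The members, the lists and the length correction were chosen with earlier results of these data known. Fold changes were computed over the whole table with a pseudocount of 1 FPKM, and no p-value was computed, since 1 library per condition leaves no replicates. Intervals were exact Clopper-Pearson intervals of counting error. Calculations were tested on simulated counts. Alternatives used a pseudocount of 0.1, no filter, a filter of 5 FPKM, edgeR's TMM factors, DESeq2 size factors, TPM, CPM, centring on the median gene, removal of a running median over exonic length (501 genes) and a threshold of 1. Promoters came from RefSeq (GRCh38.p14). The tools were R 4.3.3 (edgeR 4.0.16, DESeq2 1.42.0) and Python 3.11.15 (matplotlib 3.10.9, pandas 2.3.3, scipy 1.17.1, numpy 2.4.6).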

Additional observations from a re-analysis of the deposited data

Results flagged for a closer look

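Of the genes compared in both lines, 3 were called lower in JJ012 and higher in 143B. Each rests on 1 library per condition, and the difference between the lines was not tested. MMP1 had log2 changes (FPKM + 1) of -1.95 in JJ012 and 0.60 in 143B, a difference of -2.54 (JJ012 less 143B). MMP15 had -1.09 and 0.92, a difference of -2.01. TIMP1 had -1.11 and 0.90, a difference of -2.01.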

How the results depend on the processing

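The number of genes called in JJ012 was 9 and became 17 with CPM, which has no division by length and let 30 genes pass the filter. The number called in 143B was 5 and became 8 with a pseudocount of 0.1 FPKM, 10 with TPM, 9 with CPM and 1 with a threshold of 1. The share of all genes called in 143B was 12.7% and became 20.9%, 28.6%, 13.9% and 4.45% in the same order. The families' genes compared there were 23, and became 31 with TPM and 30 with CPM. With TPM, 6 of the 10 were lower and 4 higher in 143B. The number called in the same direction in both lines was 1 and became 0 with a threshold of 1, and the 25 genes called between the control libraries became 14 with a filter of 5 FPKM, which left 14 genes. The median log2 change was -0.65 in JJ012 and 0.27 in 143B. Without a filter the medians were -0.12 and 0.01, since 47 genes then entered, and with a filter of 5 FPKM the median in 143B was 0.44. TPM moved the median of all genes in JJ012 to 0.21. In no alternative did a called gene change sign, while genes not called did, such as MMP17 in JJ012 (-0.03, and 0.24 with TPM). Of the values of called genes under alternatives, 126 were called in the same direction and 12 were no longer called, which were those of MMP2 with TPM, of MMP1 in 143B with DESeq2 size factors (0.56), TPM (0.54), centring (0.57) and the length trend removed (0.52), and of the genes under a threshold of 1. MMP13 and MMP19 in JJ012 did not pass the filter of 5 FPKM, so they were not called under it and are not among these values. No paired analysis was possible because each comparison within a line has 1 library per condition. A fit over both lines with the line as a block would treat the lines as replicates and was not run. Calls gained included ADAMTS10 in JJ012 with CPM (-0.77) and centring (-0.58), and ADAMTS15 in 143B with TPM (-0.71) and CPM (-0.70). The floor of 3 counts limits what can be said of MMP7 and MMP19 in 143B and of MMP9 and MMP10 in JJ012.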

Other observations

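ADAMTS18, which stayed under 1 FPKM and was picked after its values were seen, had 85 and 27 counts in the 143B control and treated 143B, a log2 ratio of CPM of -1.77 (95% interval, -2.45 to -1.13). In JJ012 it had 19 counts and 1 count. The unnamed gene ENSG00000260701, which overlaps it on the other strand, had 43 and 2 counts in 143B. MMP25-AS1, which overlaps MMP25 on the other strand, had 38 and 106 counts in 143B and 291 and 220 counts in JJ012, while MMP25 had 24 and 23 counts and 44 and 22 counts. Among the leukocyte markers checked, CD3E was at 9.73 FPKM in the JJ012 control and 3.28 FPKM with melatonin, while PTPRC was at 0.14 and 0.02 FPKM there, and the 5 markers summed to 0.26 and 0.08 FPKM in 143B.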
